A study of Homo sapiens with 48 samples.

Results

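The genes described here are 49 that act in DNA replication and S phase. They were taken by name from the 19923 gene names of the count tables, and all 49 were found and all 49 passed the filter on low counts in both lines. They comprise the MCM helicase genes MCM2 to MCM7 with MCM8 and MCM10 and the origin recognition genes ORC1 to ORC6. With these are the loading factors CDC6 and CDT1, GMNN, whose protein inhibits CDT1, and the helicase activators CDC45, GINS1 to GINS4, CDC7 and DBF4. The others are PCNA with RFC1 to RFC5, the polymerase and primase genes POLA1, POLA2, PRIM1, PRIM2, POLD1, POLD2, POLD3, POLE and POLE2, then RPA1 to RPA3, LIG1, the nucleotide supply genes TYMS, RRM1, RRM2 and TK1, and the regulators E2F1 and UHRF1. Poly(A) RNA came from Kelly and NGP cells, established human neuroblastoma lines given in the labels as wild-type in genotype and MYCN-amplified. Each line received DMSO, the solvent control, or STM2457, a compound that blocks METTL3, the enzyme that writes m6A on mRNA, at 8 µM for 3 or 6 days. All groups then went into an actinomycin D series of 0, 3 or 6 h at 10 µg/ml, which blocks transcription, so the DMSO controls at 3 and 6 h carry this agent too. The 48 libraries form 24 groups of 2, and the labels do not say whether the 2 are separate cultures, so p-values measure only the spread between these libraries, which may be technical.

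Replication is prepared in G1, when the origin recognition complex, CDC6 and CDT1 load the MCM2-7 ring onto DNA as an inactive helicase. The kinase of CDC7 and DBF4, with CDC45 and the GINS complex, then turns it into the active helicase that opens the fork, where primase and the polymerases copy both strands on the sliding clamp PCNA. Many of these genes are transcribed at the G1/S transition under E2F factors, which act when the retinoblastoma proteins release them, and MYCN-amplified neuroblastoma is known for rapid proliferation.

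Because so many members are textbook E2F targets, the promoter windows of RefSeq (GRCh38.p14, 300 bases, from 250 before to 50 after a start site) were searched for the letters TTTCCCGC, TTTGGCGC, TTTCGCGC and TTTGCCGC on both strands. Windows matched 43 of the 49 members by symbol. At least 1 window held the letters in 23 of these 43 genes (53.5%), against 3.99% of the 27305 genes with a RefSeq window and 6.28% of the 11298 of them tested in both lines. The windows below run from 250 bases before to 20 after the start site, 5′ to 3′, with matches in capitals. MCM3, CDC6 and TYMS are shown as members described in full below that hold the letters, E2F1 as the gene of an E2F factor, MCM6 for its overlapping matches, and RRM2 as a member with none in either of its windows. E2F1 lies at chr20:33686366-33686635, minus strand, MCM3 at chr6:52284723-52284992, minus strand, and MCM6 at chr2:135876424-135876693, minus strand. CDC6 lies at chr17:40287629-40287898, plus strand, TYMS at chr18:657403-657672, plus strand, and RRM2 at chr2:10122318-10122587, plus strand. In MCM6 a forward and a reverse match overlap at each of 2 places.
E2F1: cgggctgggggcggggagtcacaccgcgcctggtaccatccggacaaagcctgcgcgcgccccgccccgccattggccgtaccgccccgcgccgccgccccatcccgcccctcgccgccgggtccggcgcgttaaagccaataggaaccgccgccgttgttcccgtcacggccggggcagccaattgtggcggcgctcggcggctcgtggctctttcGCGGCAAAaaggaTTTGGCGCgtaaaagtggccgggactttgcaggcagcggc
MCM3: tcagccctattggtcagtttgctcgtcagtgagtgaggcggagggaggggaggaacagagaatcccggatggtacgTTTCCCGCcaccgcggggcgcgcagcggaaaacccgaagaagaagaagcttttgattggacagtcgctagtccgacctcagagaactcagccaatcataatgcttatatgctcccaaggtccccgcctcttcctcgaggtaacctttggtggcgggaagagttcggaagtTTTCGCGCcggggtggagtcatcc
MCM6: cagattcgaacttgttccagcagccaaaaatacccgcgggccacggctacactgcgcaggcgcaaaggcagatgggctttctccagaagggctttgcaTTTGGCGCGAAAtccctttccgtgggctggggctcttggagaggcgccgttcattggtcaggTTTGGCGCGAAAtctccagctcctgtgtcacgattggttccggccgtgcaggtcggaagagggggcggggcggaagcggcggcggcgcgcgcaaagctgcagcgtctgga
CDC6: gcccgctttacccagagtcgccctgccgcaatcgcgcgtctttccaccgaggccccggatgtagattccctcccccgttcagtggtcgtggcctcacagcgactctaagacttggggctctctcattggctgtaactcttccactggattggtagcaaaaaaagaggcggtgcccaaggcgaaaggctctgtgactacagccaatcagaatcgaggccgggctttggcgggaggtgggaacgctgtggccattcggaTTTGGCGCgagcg
TYMS: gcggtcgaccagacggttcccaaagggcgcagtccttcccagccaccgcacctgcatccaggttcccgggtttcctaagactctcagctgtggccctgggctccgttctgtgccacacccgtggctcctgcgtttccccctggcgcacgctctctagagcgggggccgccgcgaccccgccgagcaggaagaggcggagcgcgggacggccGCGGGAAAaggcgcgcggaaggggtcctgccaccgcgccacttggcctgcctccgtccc
RRM2: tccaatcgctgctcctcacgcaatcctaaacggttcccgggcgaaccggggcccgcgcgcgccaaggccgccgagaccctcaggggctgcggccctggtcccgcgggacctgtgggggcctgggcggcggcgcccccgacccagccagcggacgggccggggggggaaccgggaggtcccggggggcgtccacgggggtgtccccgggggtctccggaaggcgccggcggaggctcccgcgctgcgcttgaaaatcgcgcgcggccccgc

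The libraries held 11139550 to 21942238 fragments in genes, of which the 49 genes took 0.457 to 0.756%. CPM below is a gene's fragments as a share of the TMM-scaled library size, on the usual CPM scale. All log2 changes come from edgeR's quasi-likelihood test, fitted on all libraries of a line, with Benjamini-Hochberg adjustment over all genes tested (16759 in Kelly, 14661 in NGP), and a gene is called where the adjusted p is under 0.05. TMM sets the typical gene to about no change, so each value is relative to that gene. Scaling to the ERCC spike-ins put the median of all genes at -1.18 to 0.70 over the comparisons, while the distance of the members' median from it changed by at most 0.0913 in any comparison. Other scaling shifts all genes of a comparison by about the same amount, so this distance could hardly change. The calls did change with it, as given below. The neuroblastoma marker genes HAND2, GATA3, ISL1, DBH, CHGA and MYCN had a mean over 10 CPM across the libraries of each line, and TH did so in Kelly but not in NGP. Leukocyte, endothelial, epithelial and hepatocyte markers each summed to at most 6.62 CPM in a library. The mesenchymal markers COL1A1, COL3A1 and PRRX1 summed to 5.01 to 52.1 CPM in Kelly and 75.5 to 224.7 in NGP. Exons of some members overlap other counted genes and the headers name no strand option, so the counts are uncertain for TYMS (39.9% of its exon bases, with ENOSF1), POLA2 (36.1%), MCM8 (33.3%) and PRIM1 (22.2%).

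Per kilobase of exon, in the DMSO libraries of day 3 before actinomycin D, MCM3 was the highest member in both lines. Its mean level was 148 CPM per kb in Kelly and 135 in NGP. PCNA, the sliding clamp, came next at 146 in Kelly, within its own spread of MCM3, and at 121 in NGP. MCM2 followed in Kelly (121 CPM per kb) but ranked lower in NGP (47.1), where MCM7 (118) and MCM4 (117) stood close together in its place. At the low end lay POLA2 (3.06 and 3.45), ORC4 (3.24 and 5.15) and ORC5 (2.77 and 4.88), subunits of primase-polymerase alpha and of the origin recognition complex, in Kelly and NGP respectively.

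The first comparison asks how these genes change between day 3 and day 6 in DMSO alone, before actinomycin D. They fell as a group in both lines. In Kelly 32 of the 49 were called lower and 0 higher, where 8.52% of all genes tested were called, 5.74% lower and 2.78% higher. In NGP 23 were called lower and 0 higher, where 12.1% of all genes were called, 6.72% lower and 5.37% higher. The median log2 change over the 49 was -0.57 in Kelly and -0.32 in NGP, against 0 and 0.01 over all genes. All 49 estimates were negative in Kelly and 41 in NGP. With ERCC scaling the Kelly median was -0.19 with 15 called lower and that of NGP -0.49 with 29, so the sign held. In NGP 14 were called without the first DMSO library of day 6, and 15 without the first of day 3. Of the called members, 19 in Kelly and 12 in NGP kept the call whichever of the 4 libraries was left out. The Kelly DMSO libraries of day 6 also had more mitochondrial reads (6.70 and 7.38% of fragments) than those of day 3 (5.86 and 5.32%), and more genes detected (15214 and 15200 against 14351 and 14522). In NGP the mitochondrial shares were 5.25 and 4.62% on day 6 and 4.03 and 4.21% on day 3. The part of these shares in the result was not tested. In bulk RNA, fewer cells in S phase and less of each transcript per cell cannot be told apart.

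**Figure D1:**
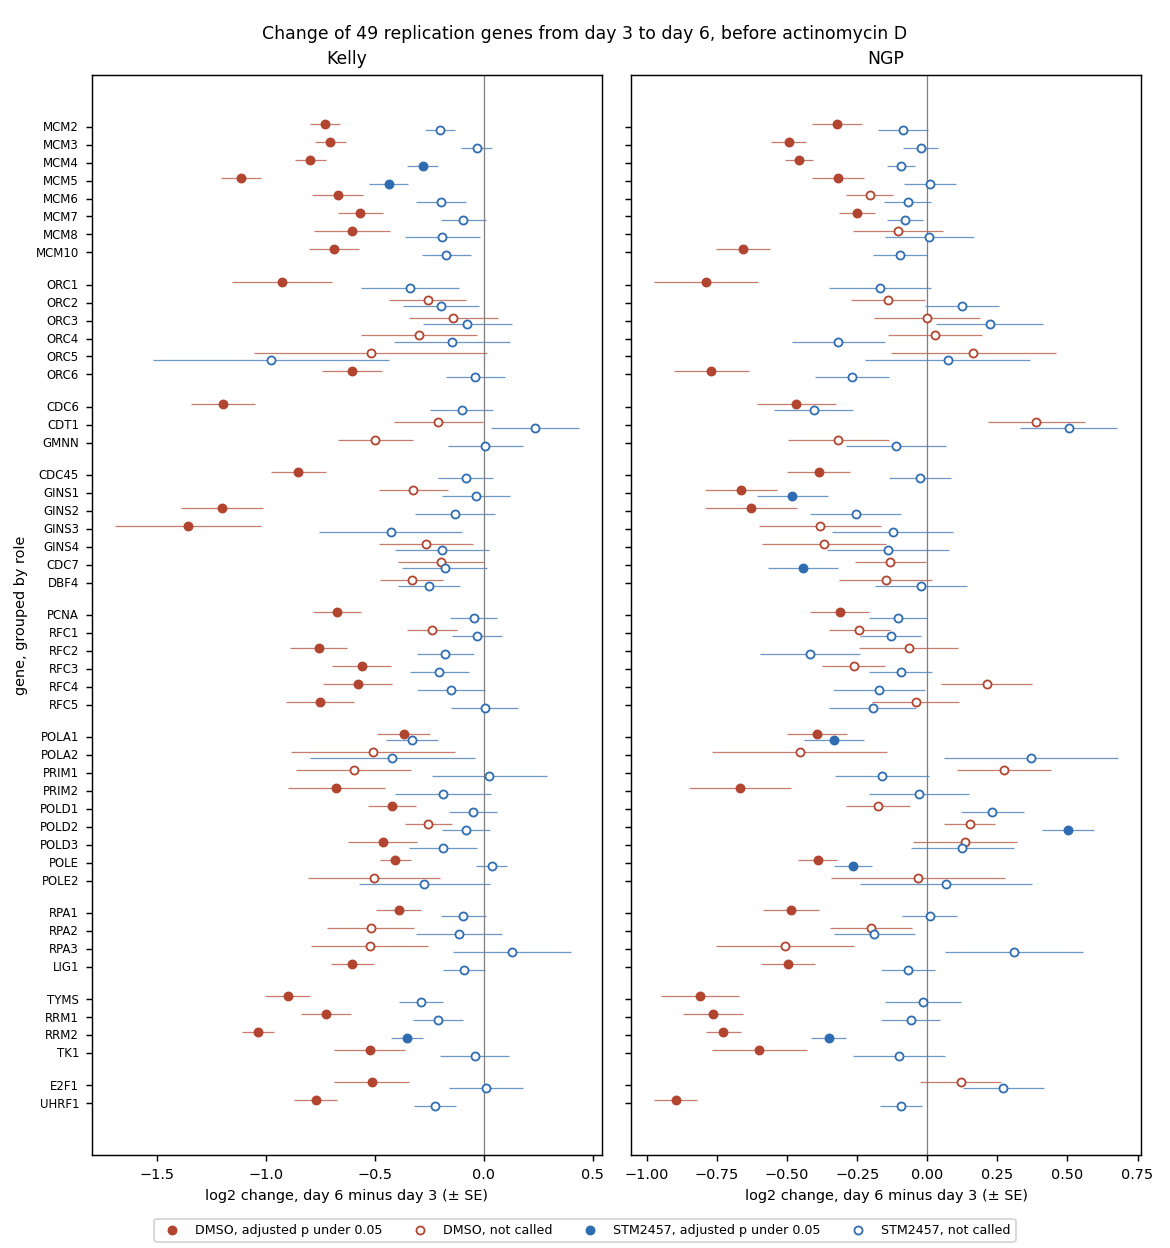
Log2 change from day 3 to day 6 (x axis, ± SE) of each of the 49 genes (y axis, grouped by role) in DMSO (red) and STM2457 (blue), Kelly left and NGP right, filled where called. In Kelly 32 red and 3 blue points are called lower, in NGP 23 red and 5 blue, and POLD2 in NGP is the only member called higher.

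MCM2 to MCM7 encode the ring that unwinds DNA, and MCM8 and MCM10 are grouped with them here. All 8 of this group fell in Kelly and 6 of 8 in NGP. MCM5 fell most among them in Kelly: it had 277 and 301 CPM on day 3 and 140.1 and 127 on day 6. The days did not overlap, and MCM5 fell by 1.12 ± 0.09 on the log2 scale (SE, edgeR adjusted p = 6.4e-23). With 2 libraries a group, groups can easily fail to overlap by order alone. The share of all genes that do so is not given, here or below. In NGP the MCM5 values were 155 and 158 on day 3 and 119 and 133 on day 6, a change of -0.32 ± 0.09 (SE, edgeR adjusted p = 0.012), but the call was lost without the first day 6 library (-0.24) and without either day 3 library (-0.33 and -0.31). MCM4 and MCM3, other subunits of the ring, fell in both lines with every library left out in turn. MCM4 had 478 and 473 CPM on day 3 and 269 and 279 on day 6 in Kelly and fell by 0.80 ± 0.07 on the log2 scale (SE, edgeR adjusted p = 8.6e-20). Its NGP libraries held 798 and 833 and then 591 and 598, and it fell by 0.46 ± 0.05 on the log2 scale (SE, edgeR adjusted p = 6.8e-12). MCM3 (chromosome 6, 52264014 to 52284881 in GRCh38) had 529 and 549.7 CPM and then 327 and 334 in Kelly and fell by 0.70 ± 0.07 on the log2 scale (SE, edgeR adjusted p = 4.2e-16). Its NGP values were 503 and 482 on day 3 and 334 and 365 on day 6, and it fell by 0.49 ± 0.06 on the log2 scale (SE, edgeR adjusted p = 1.7e-09). MCM10, a fork protein that helps activate the helicase, fell by 0.69 ± 0.11 on the log2 scale (SE, edgeR adjusted p = 4.7e-07) in Kelly, from 160.3 and 172 CPM to 106 and 100.1. In NGP MCM10 went from 181 and 189 CPM to 123 and 111 and fell by 0.66 ± 0.10 on the log2 scale (SE, edgeR adjusted p = 1.2e-07). MCM6 and MCM8 were called in Kelly alone, at -0.67 and -0.61, and had -0.21 and -0.11 in NGP. The NGP calls of MCM2 (-0.32) and MCM7 (-0.25) were lost without the first day 6 library (-0.31 and -0.21), and that of MCM2 also without the second day 3 library (-0.20). The Kelly MCM8 call was lost without the first day 3 library (-0.51) and without either day 6 library (-0.60 and -0.61).

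Of the origin recognition genes only ORC1 and ORC6 were called, the same 2 of 6 in both lines. ORC1, the subunit whose level is known to follow the cell cycle, had 40.7 and 41.2 CPM in Kelly on day 3 and 23.3 and 19.8 on day 6, and fell by 0.93 ± 0.23 on the log2 scale (SE, edgeR adjusted p = 0.0019). NGP libraries held 52.9 and 41.7 CPM of it and then 28.5 and 26.1, and it fell by 0.79 ± 0.18 on the log2 scale (SE, edgeR adjusted p = 9.3e-04). The groups did not overlap in either line, although the call was lost without the second day 6 library in Kelly (-0.82) and without the first day 3 library in NGP (-0.61). ORC6 had 87.7 and 86.7 CPM and then 49.9 and 52.3 in NGP and fell by 0.77 ± 0.13 on the log2 scale (SE, edgeR adjusted p = 4.7e-06). In Kelly ORC6 fell by 0.61 ± 0.14 on the log2 scale (SE, edgeR adjusted p = 4.8e-04), but its day 3 libraries differed (103 and 75.6 CPM) and without the first of them the change was -0.37 and not called. ORC2, ORC3, ORC4 and ORC5 were called in neither line, with log2 changes of -0.26, -0.14, -0.30 and -0.52 in Kelly and -0.14, -0.00, 0.03 and 0.16 in NGP.

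Among the loading genes CDC6, the ATPase that recruits MCM2-7 to the origin, was the one called. In Kelly it had 129.9 and 120.5 CPM on day 3 and 49.9 and 59.5 on day 6 and fell by 1.20 ± 0.15 on the log2 scale (SE, edgeR adjusted p = 8.7e-12). In NGP its values were 95.8 and 90.0 and then 68.5 and 65.9, and it fell by 0.47 ± 0.14 on the log2 scale (SE, edgeR adjusted p = 0.015), a call lost without the first day 3 library (-0.42) and without either day 6 library (-0.50 and -0.44). CDT1, its partner in loading, had 48.9 and 47.8 CPM and then 43.3 and 40.3 in Kelly, and 62.8 and 67.2 and then 80.5 and 89.8 in NGP. That is -0.21 ± 0.20 (SE, edgeR adjusted p = 0.696) in Kelly and 0.39 ± 0.17 (SE, edgeR adjusted p = 0.15) in NGP, the highest estimate of any member there, and neither was called. GMNN, whose protein geminin inhibits CDT1, had -0.50 in Kelly and -0.32 in NGP, also not called.

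Of the 7 helicase activation genes, CDC45, GINS2 and GINS3 fell in Kelly and CDC45, GINS1 and GINS2 in NGP. CDC45 is the helicase cofactor that joins MCM2-7 at the fork. Its Kelly values were 111 and 129 CPM on day 3 and 63.5 and 69.7 on day 6, and it fell by 0.85 ± 0.13 on the log2 scale (SE, edgeR adjusted p = 1.6e-08). GINS2 had 52.7 and 45.4 CPM and then 21.9 and 20.7 in Kelly and fell by 1.20 ± 0.19 on the log2 scale (SE, edgeR adjusted p = 8.9e-08). GINS3 showed the lowest estimate of any member in Kelly, from 33.9 and 35.5 CPM to 13.0 and 14.1: it fell by 1.36 ± 0.34 on the log2 scale (SE, edgeR adjusted p = 0.0019), and was not called without the first day 6 library (-1.30). In NGP the clearest of the group was GINS1, with 81.3 and 74.1 CPM and then 49.8 and 48.1, which fell by 0.67 ± 0.13 on the log2 scale (SE, edgeR adjusted p = 4.2e-05). The NGP calls of CDC45 (-0.39) and GINS2 (-0.63) were lost without the first day 3 library (-0.36 and -0.56), and that of CDC45 also without the first day 6 library (-0.31). The kinase genes CDC7 and DBF4, which fire origins, were called in neither line (-0.20 and -0.33 in Kelly, -0.13 and -0.15 in NGP), nor was GINS4.

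At the fork, PCNA and RFC2 to RFC5, the clamp and 4 subunits of its loader, fell in Kelly, while in NGP only PCNA did. PCNA had 219.6 and 191 CPM on day 3 and 137 and 121 on day 6 in Kelly and fell by 0.67 ± 0.11 on the log2 scale (SE, edgeR adjusted p = 3.0e-07). The NGP values were 167 and 172 and then 137 and 136, and it fell by 0.31 ± 0.10 on the log2 scale (SE, edgeR adjusted p = 0.033). Those NGP libraries did not overlap, but the call was lost on leaving out any of the 4 (-0.29 to -0.33). RFC2 fell by 0.76 ± 0.13 on the log2 scale (SE, edgeR adjusted p = 2.2e-06) in Kelly, from 96.7 and 86.2 CPM to 53.5 and 54.6, and had -0.07 in NGP. RFC5 fell too in Kelly, by 0.75, and had -0.04 in NGP. The Kelly calls of RFC3 and RFC4 did not hold without the first day 6 library (-0.41 and -0.49), and RFC4 had -0.28 without the first day 3 library.

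POLE, the catalytic subunit of the leading-strand polymerase epsilon, was the polymerase gene with the smallest adjusted p in each line. It had 382 and 395 CPM and then 291 and 295 in Kelly and fell by 0.41 ± 0.07 on the log2 scale (SE, edgeR adjusted p = 2.7e-06). POLE went from 426 and 439 to 303 and 357 CPM in NGP and fell by 0.39 ± 0.07 on the log2 scale (SE, edgeR adjusted p = 5.3e-06). POLA1, PRIM2, POLD1 and POLD3 were called in Kelly as well, and POLA1 and PRIM2 in NGP, with log2 changes of -0.37 to -0.68. Each of these 6 calls was lost when at least 2 of the 4 libraries were left out in turn. POLD2, POLA2, PRIM1 and POLE2 were called in neither line. LIG1, which seals the lagging strand, fell by 0.60 ± 0.10 on the log2 scale (SE, edgeR adjusted p = 3.2e-07) in Kelly (175 and 179.9 CPM, then 131 and 103). In NGP LIG1 fell by 0.50 ± 0.10 on the log2 scale (SE, edgeR adjusted p = 5.3e-05), from 161 and 147 to 108 and 110.0 CPM. RPA1, the large subunit of the single-strand binding protein, was called in both lines as well, with 125 and 143 CPM and then 101 and 90.0 in NGP, where it fell by 0.49 ± 0.10 on the log2 scale (SE, edgeR adjusted p = 9.8e-05). Its Kelly change was -0.39, not called without the first day 3 (-0.37) or the second day 6 library (-0.32). RPA2 and RPA3 were not called in either line.

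All 4 nucleotide supply genes fell in both lines. RRM2, the small subunit of ribonucleotide reductase, gave the smallest adjusted p of all members in both. In Kelly it had 459 and 475 CPM on day 3 and 219.5 and 235 on day 6 and fell by 1.04 ± 0.07 on the log2 scale (SE, edgeR adjusted p = 1.0e-28). In NGP it had 468 and 469 and then 289 and 277, and fell by 0.73 ± 0.06 on the log2 scale (SE, edgeR adjusted p = 2.6e-16). RRM1, the large subunit of the same enzyme, went from 119.6 and 133 CPM to 79.4 and 73.3 in Kelly and fell by 0.72 ± 0.12 on the log2 scale (SE, edgeR adjusted p = 1.9e-07). In NGP RRM1 fell by 0.77 ± 0.11 on the log2 scale (SE, edgeR adjusted p = 2.2e-08), from 129 and 127 CPM to 77.2 and 73.3. TYMS, thymidylate synthase, lies on chromosome 18 (657653 to 673578). It had 174 and 191 CPM and then 95.7 and 100.01 in Kelly, and 70.8 and 62.8 and then 39.9 and 36.2 in NGP. It fell by 0.90 ± 0.10 on the log2 scale (SE, edgeR adjusted p = 1.8e-13) in Kelly, and in NGP it fell by 0.81 ± 0.14 on the log2 scale (SE, edgeR adjusted p = 4.2e-06). TK1, the thymidine salvage kinase, fell by 0.52 ± 0.16 on the log2 scale (SE, edgeR adjusted p = 0.023) in Kelly (49.7 and 58.7 CPM, then 40.6 and 34.7), a call lost without the second library of day 3 (-0.40) or of day 6 (-0.42). In NGP TK1 had 40.7 and 40.7 and then 25.3 and 28.5 CPM and fell by 0.60 ± 0.17 on the log2 scale (SE, edgeR adjusted p = 0.0085), which was lost without any of 3 of the 4 libraries (-0.51 to -0.60).

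Both regulators were called lower in Kelly, but in NGP only UHRF1 was. UHRF1, which recruits DNA methylation to newly copied DNA, had 219 and 231 CPM and then 132 and 132 in Kelly and fell by 0.77 ± 0.10 on the log2 scale (SE, edgeR adjusted p = 3.8e-11). In NGP it went from 376 and 382 CPM to 192 and 215 and fell by 0.90 ± 0.08 on the log2 scale (SE, edgeR adjusted p = 2.9e-16), the lowest estimate of any member in that line. E2F1, the transcription factor, had 65.1 and 64.9 CPM and then 49.02 and 41.8 in Kelly and fell by 0.52 ± 0.17 on the log2 scale (SE, edgeR adjusted p = 0.038), which was lost on leaving out any of the 4 libraries (-0.41 to -0.64). In NGP E2F1 had 78.3 and 76.7 and then 84.3 and 84.0 CPM, a change of 0.12 ± 0.15 (SE, edgeR adjusted p = 0.76), which was not called. Members with and without the E2F letters differed little in these counts. In Kelly 16 of the 23 with the letters and 13 of the 20 without were called lower, and in NGP 12 and 9. Their medians were -0.57 and -0.59 in Kelly, and -0.32 and -0.21 in NGP. This is a description of the windows and draws nothing about the factor.

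**Figure D2:**
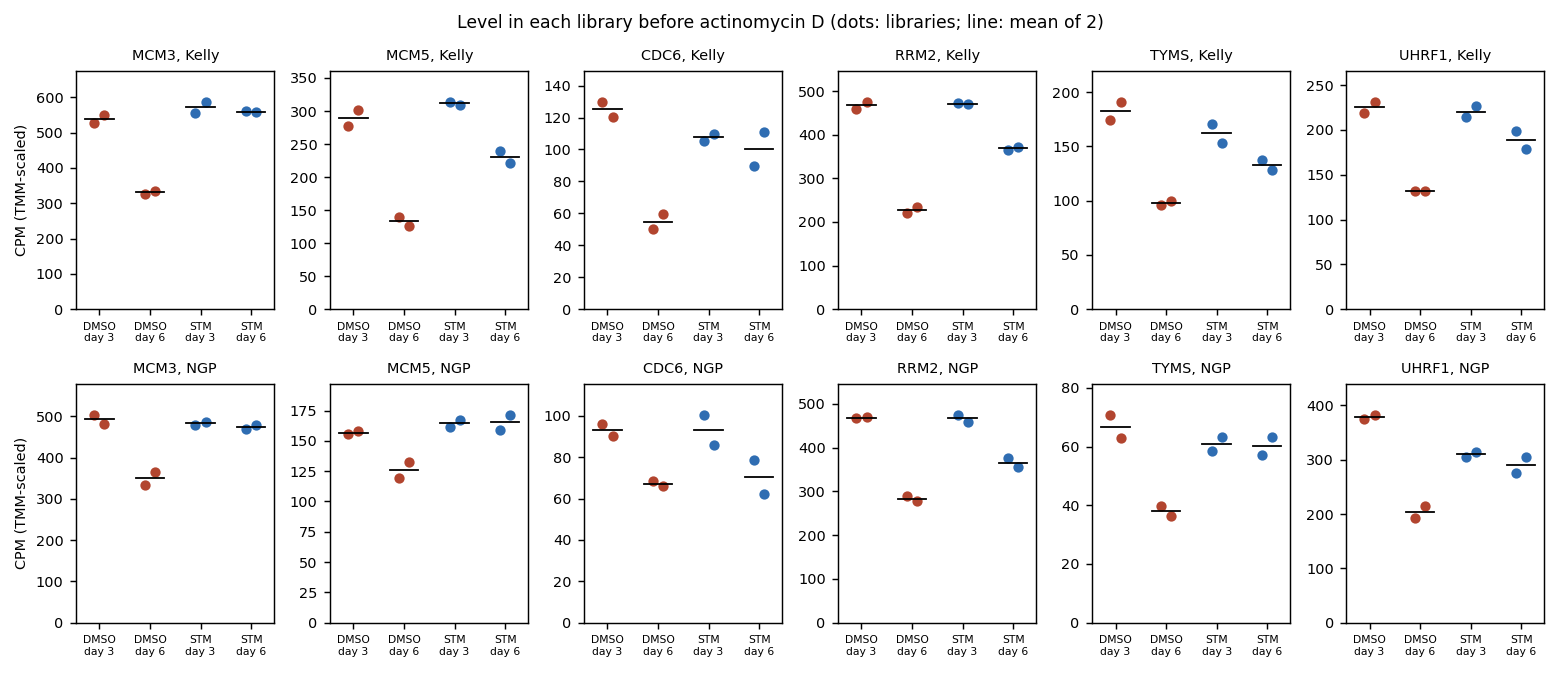
CPM (y axis, TMM-scaled, from 0) of MCM3, MCM5, CDC6, RRM2, TYMS and UHRF1 in each library before actinomycin D, by treatment and day (x axis), with Kelly above and NGP below; dots are libraries and lines the means of 2. In Kelly RRM2 stands at 219.5 and 235 CPM in DMSO on day 6, below the 365 and 373 in STM2457 on that day.

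Over the lines, 22 members were called lower in both (2.90% of the 14314 genes tested in both lines were) and 16 in neither. Those in neither were ORC2 to ORC5, CDT1, GMNN, GINS4, CDC7, DBF4, RFC1, POLA2, PRIM1, POLD2, POLE2, RPA2 and RPA3. The libraries taken after 3 and 6 h of actinomycin D allow the same comparison. They belong to the same arms of line, treatment and day, and the labels do not say whether they are separate cultures. Their counts are therefore no independent repeat of those at 0 h. In Kelly 30 members were lower on day 6 than on day 3 after 3 h (7.21% of all genes were) and 28 after 6 h (8.11%), and 0 were higher in either (4.34 and 5.07% of all genes were). In NGP 22 were lower after 3 h (9.19%) and 31 after 6 h (10.9%), with POLD2 higher after 3 h (0.48) and POLD1 after 6 h (0.30). Counted at 0, 3 and 6 h together, 23 members were called lower in all of the library sets in Kelly and 16 in NGP, where 3.33 and 4.21% of all genes were. Leaving out 1 library lowered these counts to as few as 17 of 30 in Kelly after 3 h (without the second day 6 library) and 16 of 32 in NGP after 6 h (without the first day 3 library). The POLD1 call was lost on leaving out any of the 4 libraries (0.32 to 0.34).

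Under STM2457 the same interval brought few calls. In Kelly 3 of the 49 fell between day 3 and day 6, MCM4, MCM5 and RRM2, and 0 rose, where 2.39% of all genes were called and 1.19% lower. In NGP 5 fell, GINS1, CDC7, POLA1, POLE and RRM2, and POLD2 rose, where 5.48% of all genes were called, 2.31% lower and 3.17% higher. The medians over the 49 were -0.15 and -0.09. RRM2 was the one member called in both lines. It had 473 and 470.3 CPM on day 3 and 365 and 373 on day 6 in Kelly and fell by 0.35 ± 0.07 on the log2 scale (SE, edgeR adjusted p = 3.4e-04). In NGP it had 474 and 459 and then 375 and 356, and fell by 0.35 ± 0.06 on the log2 scale (SE, edgeR adjusted p = 1.6e-05). MCM5 fell by 0.44 ± 0.09 on the log2 scale (SE, edgeR adjusted p = 3.8e-04) in Kelly, from 314 and 309.5 CPM to 239 and 221. POLD2, a small subunit of polymerase delta, had 106 and 103 CPM and then 150.4 and 145 in NGP, a rise of 0.50 ± 0.09 (SE, edgeR adjusted p = 3.2e-05). These RRM2, MCM5 and POLD2 calls held with each library left out. MCM4 in Kelly (-0.28) was lost without the second library of either day (-0.26 and -0.27). GINS1 (-0.48), CDC7 (-0.44), POLA1 (-0.33) and POLE (-0.26) in NGP were each lost without at least 2 libraries, and POLE had -0.16 without the first day 6 library, where 3 of the 6 calls were left. With ERCC scaling, under which the median of all genes was -0.24 in Kelly and -0.30 in NGP, 23 and 30 members were called lower and 0 higher.

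**Figure D3:**
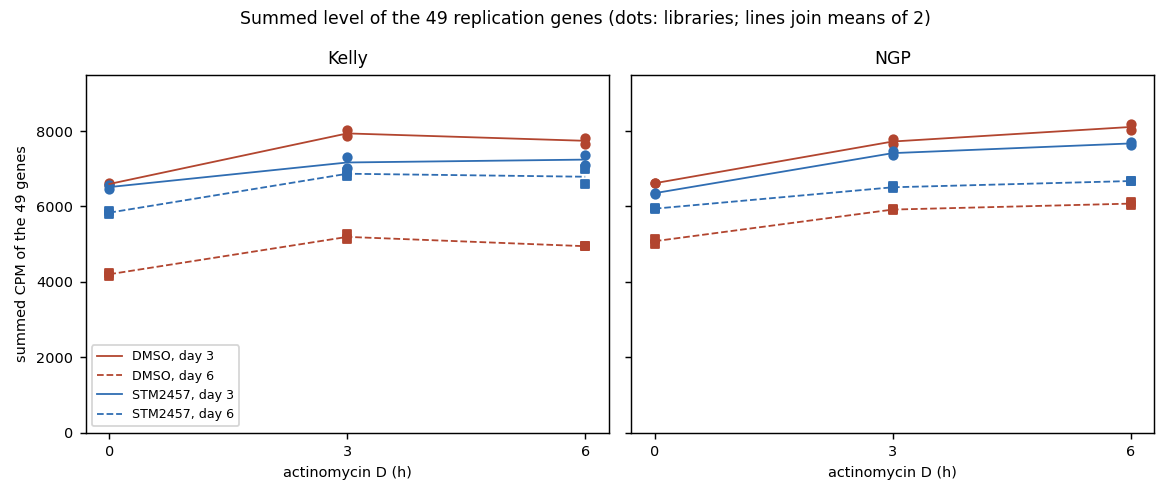
Summed CPM of the 49 genes (y axis, from 0) against hours of actinomycin D (x axis) in Kelly (left) and NGP (right); points are libraries, lines join the means of 2, red DMSO and blue STM2457, solid day 3 and dashed day 6. The dashed red line lies lowest in both panels, at 4200 and 5078 CPM before actinomycin D.

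Summed over the 49 genes, Kelly DMSO libraries had 6563 and 6627 CPM on day 3 and 4247 and 4154 on day 6 before actinomycin D. The Kelly STM2457 libraries had 6470 and 6557 and then 5879 and 5791. In NGP the DMSO sums were 6622 and 6610 on day 3 and 5009 and 5147 on day 6, and the STM2457 sums 6366 and 6338 and then 5919 and 5962. The day 6 DMSO libraries were thus the lowest of each line, with no overlap with any other group. A sum is led by the abundant members, among them MCM2, MCM3, MCM4, RRM2 and POLE.

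The STM2457 effect compares the inhibitor with DMSO on the same day before actinomycin D. After 3 days few members were called, which does not show that the others were unchanged. In Kelly 0 of 49 were called by edgeR (3 at an unadjusted p under 0.05, 1 by DESeq2), where 1.68% of all genes were (1.10% lower), and the median was -0.01. With ERCC scaling, which put the median of all genes at 0.38 here, 27 were called higher. In NGP 3 were called, where 3.70% of all genes were, 1.25% higher and 2.45% lower. MCM7, a subunit of the helicase ring, had 521 and 513 CPM in DMSO and 418 and 385 in STM2457, a difference of -0.36 ± 0.06 (SE, edgeR adjusted p = 5.1e-05) that held without any single library. UHRF1 had 376 and 382 and 305 and 314 CPM, a difference of -0.29 ± 0.08 (SE, edgeR adjusted p = 0.011). CDC7, the origin-firing kinase, had 80.3 and 72.8 in DMSO and 108 and 98.8 in STM2457, a difference of 0.43 ± 0.13 (SE, edgeR adjusted p = 0.03). Neither pair overlapped, but both calls were lost on leaving out any 1 of the 4 libraries (-0.27 to -0.31 for UHRF1, 0.36 to 0.51 for CDC7).

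After 6 days members were higher under STM2457 in both lines. In Kelly 25 of 49 were called higher and 0 lower, where 3.97% of all genes were called, 2.70% higher and 1.26% lower, and the median was 0.45. In NGP 12 were called higher and RFC4 lower, where 7.99% of all genes were called, 4.45% higher and 3.55% lower, and the median was 0.20. With ERCC scaling 10 were called higher in Kelly (median 0.21), and 11 higher and 2 lower in NGP. The comparison uses the day 6 DMSO libraries that also enter the DMSO change above, so the results share these samples: 24 of the 25 Kelly members were among the 32 that fell in DMSO. In Kelly 14 were called without the second DMSO library and 16 without either STM2457 library. The 10 that kept the call in all 4 refits were MCM2, MCM3, MCM4, MCM5, MCM10, CDC6, GINS2, RFC2, RRM2 and UHRF1. In NGP 7 did: MCM3, MCM4, RPA1, TYMS, RRM2, TK1 and UHRF1.

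Of the MCM group, 7 of 8 were higher under STM2457 on day 6 in Kelly, MCM7 being the exception, and MCM3, MCM4, MCM5 and MCM10 in NGP. MCM3 had 327 and 334 CPM in DMSO and 561 and 557 in STM2457 in Kelly, a difference of 0.76 ± 0.07 (SE, edgeR adjusted p = 1.1e-17). In NGP it had 334 and 365 and 470.2 and 479, a difference of 0.44 ± 0.06 (SE, edgeR adjusted p = 7.9e-08). MCM5 had 140.1 and 127 against 239 and 221 CPM in Kelly (0.79 ± 0.09 (SE, edgeR adjusted p = 1.3e-12)). In NGP it had 119 and 133 against 159 and 171 (0.40 ± 0.09 (SE, edgeR adjusted p = 0.0017)), lost without the first DMSO (0.32) or the second STM2457 library (0.34). MCM4 had 591 and 598 CPM in NGP DMSO and 748 and 765 in STM2457 (0.35 ± 0.05 (SE, edgeR adjusted p = 8.1e-08)). Its Kelly libraries held 269 and 279 and 396 and 382 (0.50 ± 0.07 (SE, edgeR adjusted p = 7.4e-09)). These groups did not overlap for MCM3, MCM4 or MCM5 in either line. MCM10 was higher by 0.60 ± 0.11 (SE, edgeR adjusted p = 3.7e-05) in Kelly and by 0.43 ± 0.10 (SE, edgeR adjusted p = 8.6e-04) in NGP, the latter lost without the second DMSO library (0.36). The Kelly calls of MCM6 (0.49) and MCM8 (0.70) were lost without the second library of either treatment, at 0.44 for MCM6 in each case and 0.70 and 0.65 for MCM8.

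ORC1 was the origin recognition gene higher in both lines. Its Kelly libraries held 23.3 and 19.8 CPM in DMSO and 41.6 and 44.9 in STM2457 (1.00 ± 0.23 (SE, edgeR adjusted p = 0.0012)), and its NGP libraries 28.5 and 26.1 and 46.0 and 47.3 (0.77 ± 0.18 (SE, edgeR adjusted p = 0.0019)). Both were lost without the second DMSO library (0.89 and 0.71). ORC6 was called in Kelly alone (0.60), lost without the first DMSO (0.55) or the second STM2457 library (0.53). CDC6 had 49.9 and 59.5 CPM in Kelly DMSO and 89.8 and 111 in STM2457, a difference of 0.88 ± 0.15 (SE, edgeR adjusted p = 1.6e-06). In NGP CDC6 had 68.5 and 65.9 and 78.5 and 62.2 CPM, groups that overlapped, and 0.07 ± 0.14 (SE, edgeR adjusted p = 0.901). CDT1 was called in Kelly (0.64), a call lost without either DMSO or the first STM2457 library (0.39 to 0.69), and GMNN in neither line. GINS2 gave the largest difference of any member in Kelly, 1.01 ± 0.19 (SE, edgeR adjusted p = 2.4e-05), with 21.9 and 20.7 CPM in DMSO and 45.3 and 40.3 in STM2457. CDC45 was higher in Kelly by 0.60 ± 0.13 (SE, edgeR adjusted p = 3.3e-04), a call lost without the first STM2457 library (0.48). No helicase activation gene was called in NGP by edgeR.

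PCNA, RFC2 and RFC5 were higher in Kelly. RFC2 had 53.5 and 54.6 CPM in DMSO and 80.0 and 81.3 in STM2457 (0.58 ± 0.13 (SE, edgeR adjusted p = 0.0012)). PCNA had 137 and 121 and 174 and 189.7 (0.49 ± 0.11 (SE, edgeR adjusted p = 7.2e-04)), lost without the second library of either treatment (0.41 for each). RFC5 (0.51) was lost on leaving out any library (0.43 to 0.57). RFC4, a loader subunit, was the one member lower under STM2457 on day 6, in NGP, where DMSO had 78.5 and 62.9 CPM and STM2457 45.1 and 51.5. Its difference was -0.55 ± 0.16 (SE, edgeR adjusted p = 0.019) and was lost without the first library of either treatment (-0.38 and -0.46). The polymerase genes POLE (0.24) and POLD3 (0.56) were called in Kelly and lost on leaving out any of the 4 libraries, and no gene of that group was called in NGP. RPA1 was higher in NGP, with 101 and 90.0 CPM against 127 and 135 (0.46 ± 0.10 (SE, edgeR adjusted p = 4.7e-04)). LIG1 was higher in both lines, by 0.50 ± 0.10 (SE, edgeR adjusted p = 9.8e-05) in Kelly and by 0.33 ± 0.10 (SE, edgeR adjusted p = 0.019) in NGP. Those calls were lost without the second Kelly DMSO library (0.34), and in NGP without either DMSO (0.31 and 0.34) or the first STM2457 library (0.23).

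The nucleotide supply genes were all 4 higher in both lines after 6 days. RRM2 had 219.5 and 235 CPM in Kelly DMSO and 365 and 373 in STM2457 (0.70 ± 0.07 (SE, edgeR adjusted p = 5.6e-15)). Its NGP libraries held 289 and 277 and 375 and 356 (0.37 ± 0.06 (SE, edgeR adjusted p = 3.9e-06)). TK1 gave the largest difference of any member in NGP, 0.85 ± 0.17 (SE, edgeR adjusted p = 1.3e-04), with 25.3 and 28.5 CPM in DMSO and 49.9 and 46.6 in STM2457. In Kelly TK1 had 40.6 and 34.7 and 77.3 and 57.7 (0.84 ± 0.16 (SE, edgeR adjusted p = 5.9e-05)), lost without the first STM2457 library (0.60). TYMS was higher in NGP by 0.66 ± 0.14 (SE, edgeR adjusted p = 3.1e-04), with 39.9 and 36.2 CPM against 57.0 and 63.4. In Kelly it was higher by 0.44 ± 0.10 (SE, edgeR adjusted p = 0.0016), lost without the first DMSO (0.41) or first STM2457 library (0.37). RRM1 was higher by 0.42 ± 0.12 (SE, edgeR adjusted p = 0.013) in Kelly and by 0.58 ± 0.11 (SE, edgeR adjusted p = 3.4e-05) in NGP. The Kelly call was lost without the second DMSO (0.37) or either STM2457 library (0.45 and 0.35), and the NGP call without the first STM2457 library (0.38). UHRF1 had 132 and 132 CPM in Kelly DMSO and 198 and 179 in STM2457 (0.52 ± 0.10 (SE, edgeR adjusted p = 3.7e-05)). In NGP it had 192 and 215 and 276 and 304 (0.51 ± 0.08 (SE, edgeR adjusted p = 2.4e-07)). On day 3 UHRF1 had been called lower under STM2457 in NGP (-0.29). That day 3 call was lost on leaving out any of the 4 libraries and with ERCC scaling. E2F1 was called in Kelly (0.66) but lost without the second DMSO (0.56) or either STM2457 library (0.62 and 0.67).

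Whether the STM2457 effect itself differed between day 3 and day 6 was tested by the interaction of treatment and duration, which equals the change over time in STM2457 minus that in DMSO. In Kelly 13 members were called with a more positive effect on day 6 and 0 with a more negative one, where 0.680% of all genes were called more positive. In NGP 8 were and 0, where 1.75% of all genes were. The medians over the 49 were 0.48 and 0.22. MCM3, MCM4, TYMS, RRM2 and UHRF1 were called in both lines. MCM3 gave 0.67 ± 0.10 (SE, edgeR adjusted p = 4.2e-07) in Kelly and 0.47 ± 0.09 (SE, edgeR adjusted p = 1.4e-04) in NGP, and RRM2 0.68 ± 0.10 (SE, edgeR adjusted p = 4.2e-07) in Kelly and 0.38 ± 0.09 (SE, edgeR adjusted p = 0.0032) in NGP. UHRF1 had the largest value among the called members in NGP, 0.80 ± 0.11 (SE, edgeR adjusted p = 3.6e-08), and CDC6 the largest in Kelly, 1.09 ± 0.21 (SE, edgeR adjusted p = 1.4e-04). In each of the 8 refits without 1 library, 6 of the 13 Kelly members and 4 of the 8 NGP members kept the call. In Kelly 7 were called without the first STM2457 library of either day and 8 without the second DMSO library of day 3, and in NGP 5 without the second DMSO library of day 6. With ERCC scaling the Kelly result turned: the median of all genes was -0.62, and 4 members were called more negative and 0 more positive. In NGP 3 were then called more positive.

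Between the lines, the DMSO change was less negative in NGP than in Kelly, or positive, for MCM2, MCM4, MCM5, MCM6, CDC6, RFC4, RFC5 and RRM2, 8 of the 49. Of all 17343 genes in the joint fit of 48 libraries 1.73% were called in that direction. RFC4 did not fall in NGP, where its mean went from 61.1 CPM on day 3 to 70.7 on day 6. MCM5 had the largest difference among the 8 (0.80 ± 0.12 SE, edgeR adjusted p = 3.2e-06) and was the one that kept the call without any single library. Without the first NGP DMSO library of day 3 only 1 of the 8 was called. With ERCC scaling, which put the median of all genes at -0.50 here, 12 members were called in the opposite direction. The STM2457 effect on day 6 differed for CDC6 alone (-0.79 ± 0.21 SE, edgeR adjusted p = 0.021), with the effect smaller in NGP, where 1.75% of all genes were called. That call was lost without the first Kelly DMSO library (-0.68) or the second Kelly STM2457 library (-0.64), and without the first NGP DMSO (-0.77) or second NGP STM2457 library (-0.64). DESeq2 called 8 members and edgeR's fit with a replicate block 3.

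The actinomycin D series compares 6 h with 0 h within each treatment and day. Since CPM are shares of what remains, a positive value marks a transcript whose share grew against the typical gene while transcription was blocked, and a negative value one whose share shrank. In DMSO 14 were higher and 10 lower in Kelly on day 3 and 18 and 8 on day 6, where 30.1 and 26.5% of all genes were called (14.4 and 13.2% higher, 15.6 and 13.3% lower). In NGP 20 were higher and 9 lower on day 3 and 19 and 11 on day 6, where 37.4 and 36.7% were (19.0 and 18.0% higher, 18.4 and 18.7% lower). Under STM2457 the counts were 14 and 13 and then 15 and 12 in Kelly, where 26.9 and 26.4% of all genes were called (12.8 and 12.4% higher, and 2350 and 2354 of the 16759 lower). They were 19 and 7 and then 15 and 10 in NGP, where 32.5 and 32.1% were (16.6 and 15.7% higher, 15.9 and 16.4% lower). These splits rest on the scaling. By library size only, the DMSO splits in Kelly were 10 higher and 15 lower on day 3 and 11 and 13 on day 6, and in NGP 10 and 15 and then 13 and 16. Under STM2457 they were 10 and 14 and then 10 and 13 in Kelly, and 8 and 11 and then 7 and 17 in NGP. With ERCC scaling, which put the median of all genes at -0.34 to -1.18 in these comparisons, at most 1 member was called higher in any of them and 21 to 49 lower.

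In DMSO 5 members were called lower at 6 h in both lines on both days: CDC6, CDT1, GMNN, GINS3 and DBF4. Of the 14314 genes tested in both lines 8.94% were, so 5 of the 49 is near the share of all genes. CDT1 in NGP on day 3 had 62.8 and 67.2 CPM at 0 h, 42.7 and 39.4 at 3 h and 22.7 and 24.9 at 6 h, and fell by 1.45 ± 0.18 on the log2 scale (SE, edgeR adjusted p = 1.9e-10). On day 6 it had 80.5 and 89.8 CPM at 0 h, 34.3 and 44.3 at 3 h and 21.4 and 25.8 at 6 h in NGP, where 27.7% of its share was left (-1.86 ± 0.18 (SE, edgeR adjusted p = 1.7e-14)). In Kelly CDT1 had 48.9 and 47.8 CPM at 0 h, 46.3 and 43.7 at 3 h and 32.7 and 22.8 at 6 h on day 3, a change of -0.80 ± 0.21 (SE, edgeR adjusted p = 8.7e-04). That Kelly call was lost without the second 6 h library (-0.56). GINS3, a subunit of the GINS ring, had the lowest mean change over the 4 DMSO comparisons, -1.57. In Kelly on day 3 it had 33.9 and 35.5 CPM at 0 h, 10.1 and 10.5 at 3 h and 9.07 and 3.87 at 6 h, with counts of 126 and 55 at 6 h, and fell by 2.42 ± 0.35 on the log2 scale (SE, edgeR adjusted p = 1.8e-09). In NGP its changes were -1.34 on day 3 and -0.93 on day 6, the latter lost without the second 0 h library (-0.65).

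DBF4, the activating partner of CDC7, had 129 and 129 CPM at 0 h, 52.0 and 68.0 at 3 h and 43.5 and 35.1 at 6 h in Kelly on day 3 and fell by 1.72 ± 0.15 on the log2 scale (SE, edgeR adjusted p = 9.3e-22). Its other DMSO changes were -1.53 in Kelly on day 6 and -0.93 and -1.28 in NGP. GMNN changed by -1.24 and -1.46 in Kelly and by -0.45 and -1.06 in NGP. The GMNN call in NGP on day 3 was lost without either 0 h library or the second 6 h library (-0.34 to -0.48). CDC6 changed by -0.50 to -0.80 over the same comparisons, and in NGP on day 6 was not called without the first 6 h library (-0.41). All 3 genes of the loading group were therefore called lower in each of the 4, and also in each of the 4 STM2457 comparisons, relative to the typical gene.

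At the other end, 10 members were called higher at 6 h in all 4 DMSO comparisons: MCM2, MCM4, POLA1, POLD2, POLE, RPA1, LIG1, TYMS, RRM1 and RRM2, where 9.13% of the genes tested in both lines were. POLD2 and POLE had the highest mean changes, 0.70 and 0.66. POLE had 382 and 395 CPM at 0 h, 631 and 557 at 3 h and 657 and 643 at 6 h in Kelly on day 3, a change of 0.74 ± 0.07 (SE, edgeR adjusted p = 1.0e-18). In NGP on day 3 it had 426 and 439 CPM at 0 h, 552 and 571 at 3 h and 627 and 629 at 6 h, a change of 0.54 ± 0.07 (SE, edgeR adjusted p = 2.7e-10). POLD2 had 132 and 118 CPM at 0 h, 154 and 165 at 3 h and 212 and 201 at 6 h in NGP on day 3 (0.72 ± 0.09 (SE, edgeR adjusted p = 2.5e-10)), and 116 and 99.3 CPM at 0 h, 167 and 180.0 at 3 h and 184 and 190.4 at 6 h in Kelly on day 6 (0.80 ± 0.11 (SE, edgeR adjusted p = 1.0e-10)). Neither gene's 0 h and 6 h libraries overlapped in these sets. Under STM2457 POLE was the highest member in Kelly on both days, at 0.96 and 0.97. With ERCC scaling the sign of the DMSO values turned in part: POLE was -0.47 in Kelly on day 6 and -0.26 and -0.51 in NGP on days 3 and 6, and POLD2 was -0.47, -0.079 and -0.46. Within replication, then, subunits of one machine could differ under TMM scaling. GINS3 lay lowest, while GINS1, not among the highest, changed by 0.64 and 0.52 in Kelly and by 0.26 and 0.59 in NGP. The order of the 49 was alike in the lines: Pearson's r between Kelly and NGP was 0.86 on each day over the 49 genes in DMSO (Spearman's rho 0.83 on each day). These are descriptions, and the points of a line share their libraries.

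**Figure D4:**
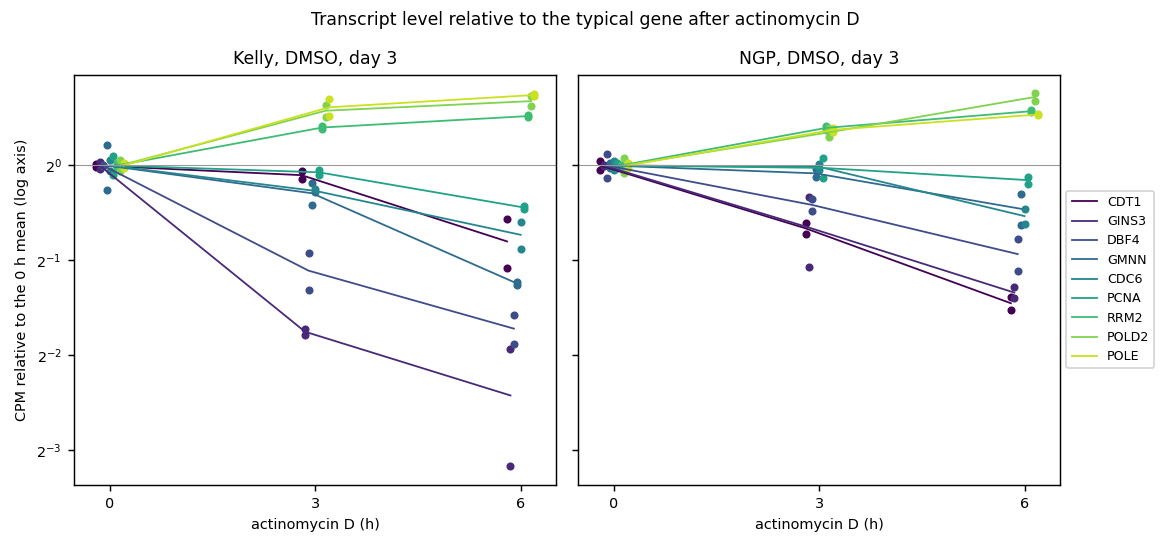
CPM relative to the 0 h mean (y axis, log scale) of 9 members after 0, 3 and 6 h of actinomycin D (x axis) in DMSO on day 3, Kelly left and NGP right; dots are libraries and lines join means, with 1 marking the typical gene under TMM. GINS3 and DBF4 in Kelly and CDT1 and GINS3 in NGP end lowest, at 18.6, 30.4, 36.6 and 39.5% of the 0 h mean, and POLE and POLD2 end above it.

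The decay difference, the change from 0 to 6 h in STM2457 minus that in DMSO, was called for few members. In Kelly 0 of 49 were called by edgeR on day 3 or day 6 (7 and 4 at an unadjusted p under 0.05, and 0 and 1 by DESeq2), where 0.221 and 0.424% of all genes were (0.0239 and 0.274% lower). In NGP MCM3 was called on day 3 and MCM4, RFC4 and UHRF1 on day 6, where 0.703 and 2.54% of all genes were. MCM3 on day 3 had 503 and 482 CPM at 0 h and 418 and 420.3 at 6 h in DMSO, and 479.9 and 486 and then 554 and 539 in STM2457. Its share shrank in one and grew in the other, with a difference of 0.41 ± 0.09 (SE, edgeR adjusted p = 0.0069), lost without the first 0 h library of DMSO (0.38) or of STM2457 (0.40). UHRF1 on day 6 had 192 and 215 CPM at 0 h and 314 and 365 at 6 h in DMSO, and 276 and 304 and then 302 and 344 in STM2457. The difference was -0.59 ± 0.11 (SE, edgeR adjusted p = 1.1e-04), and it was the one that held in all 8 refits. The 0 h levels were lower in DMSO than in STM2457 and the 6 h levels overlapped, and the part of the 0 h levels in the difference was not tested. MCM4 on day 6 gave -0.27 ± 0.07 (SE, edgeR adjusted p = 0.013), lost without the second STM2457 library at 0 h or 6 h (-0.26 for each). RFC4 had 78.5 and 62.9 CPM at 0 h and 30.8 and 35.1 at 6 h in DMSO, and 45.1 and 51.5 and then 35.7 and 49.05 in STM2457, with a difference of 0.91 ± 0.23 (SE, edgeR adjusted p = 0.013) that 4 of the 8 refits lost (0.65 to 0.82). On day 6 the 0 h levels also differed for MCM4, with means of 594 CPM in DMSO and 756 in STM2457. The part of the 0 h levels in the MCM4 and RFC4 differences was not tested. With ERCC scaling, which put the median of all genes at 0.41 in this comparison, 13 members were called positive and 0 negative, and MCM4 was 0.15. In Kelly ERCC scaling called 21 members negative on day 3 and 31 positive on day 6. Over the 49 genes the changes in DMSO and STM2457 had a Pearson's r of 0.92 and 0.88 in Kelly on days 3 and 6 and 0.89 on each day in NGP, again a description.

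**Figure D5:**
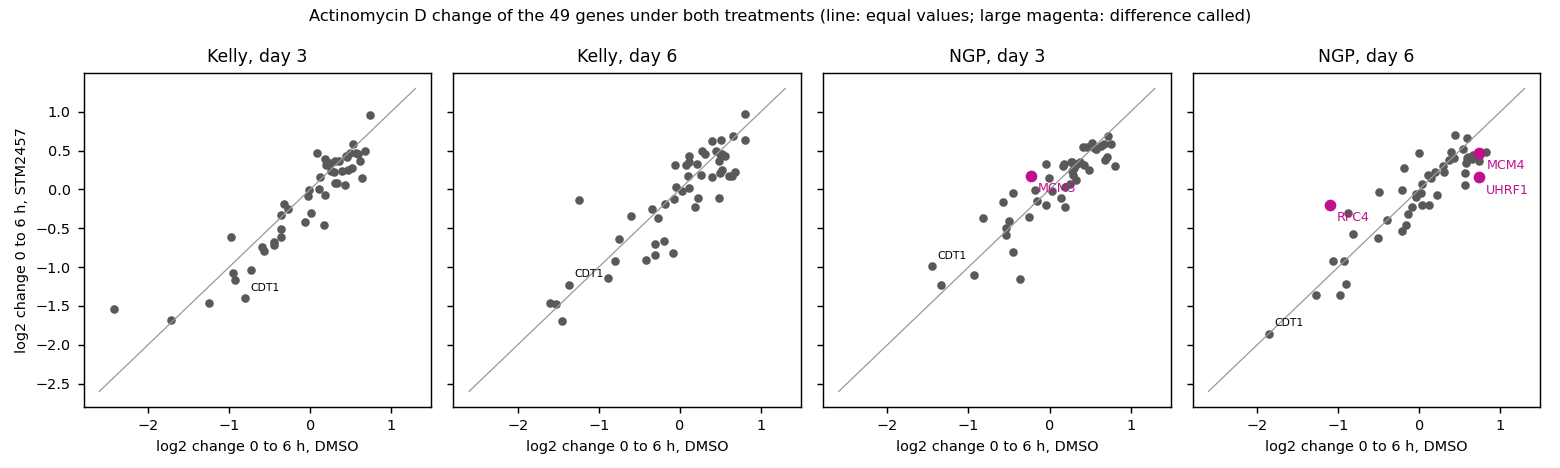
Log2 change over the actinomycin D series, 6 h against 0 h, with DMSO on the x axis and STM2457 on the y axis for the 49 genes, in 4 panels by line and day; the line marks equal values and large magenta points the 4 called differences. In NGP MCM3 lies above the line on day 3, and on day 6 RFC4 lies above it and MCM4 and UHRF1 below.

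The members at the ends of the other comparisons were partly low and variable ones that were not called, and leaving out 1 library moved many of them by over 1.5 times. They are given as the log2 estimate with the range over refits that each leave out 1 library. ORC5, at 2.77 CPM per kb in Kelly on day 3 in DMSO, is the chief case. Its STM2457 effect in Kelly on day 6 was the lowest estimate (-0.65 ± 0.54 SE, -1.47 to -0.15 over the refits), as was its change over time in STM2457 (-0.98 ± 0.54 SE, -1.79 to -0.47 over the refits). The first STM2457 library of day 6 gave the weaker end of both ranges when left out, and the second the stronger end. ORC5 was also lowest in the Kelly interaction with duration (-0.46 ± 0.76 SE, -1.29 to 0.03 over the refits) and in the NGP decay difference on day 3 (-0.78 ± 0.42 SE, -1.03 to -0.58 over the refits). It was highest in the Kelly decay difference on day 6 (1.11 ± 0.78 SE, 0.53 to 1.92 over the refits) and in the line difference of the day 6 STM2457 effect (0.58 ± 0.56 SE, 0.058 to 1.37 over the refits). CDT1 had the highest estimate over time in STM2457 in Kelly (0.24 ± 0.20 SE, -0.0048 to 0.42 over the refits), where the sign turned without the first day 6 library. In NGP CDT1 was highest too (0.50 ± 0.17 SE, 0.33 to 0.66 over the refits), as it was in the NGP decay difference on day 3 (0.46 ± 0.25 SE, 0.068 to 0.77 over the refits).

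On day 3 RPA3, the small subunit of the single-strand binding protein, had the lowest STM2457 effect in Kelly (-0.46 ± 0.27 SE, -0.63 to -0.26 over the refits) and in NGP (-0.40 ± 0.25 SE, -0.47 to -0.33 over the refits). The Kelly value was the weaker end of its range without the first DMSO library. ORC1 was highest there in Kelly (0.42 ± 0.23 SE, 0.40 to 0.44 over the refits). In the NGP interaction with duration POLA2 was highest (0.82 ± 0.44 SE, 0.55 to 1.17 over the refits) and PRIM1 lowest (-0.43 ± 0.24 SE, -0.57 to -0.31 over the refits). In the Kelly decay difference GINS3 was highest on day 3 (0.88 ± 0.48 SE, 0.39 to 1.62 over the refits), RPA2 lowest on day 3 (-0.63 ± 0.28 SE, -0.76 to -0.52 over the refits) and POLD3 lowest on day 6 (-0.74 ± 0.22 SE, -1.03 to -0.50 over the refits). Between the lines RFC2, a clamp loader subunit, had the lowest difference in the day 6 STM2457 effect (-0.79 ± 0.23 SE, -0.99 to -0.60 over the refits), and in the DMSO change GINS3 had the highest (0.98 ± 0.41 SE, 0.70 to 1.21 over the refits) and GINS1 the lowest (-0.34 ± 0.20 SE, -0.50 to -0.20 over the refits). None of these was called. After actinomycin D the highest estimates of the DMSO change in Kelly, also not called, were DBF4 at 3 h (0.34 ± 0.15 SE, 0.16 to 0.54 over the refits) and POLD3 at 6 h (0.38 ± 0.16 SE, 0.17 to 0.56 over the refits).

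Among called values at the ends, ORC3 was the highest member in NGP DMSO decay on day 3, 0.81 ± 0.19 (SE, edgeR adjusted p = 2.9e-04). GINS4 was highest there on day 6, 0.83 ± 0.22 (SE, edgeR adjusted p = 0.0014), and was -0.23 with ERCC scaling, while POLD2 had 0.59. In Kelly DMSO on day 6 GINS3 was lowest at -1.60 and POLE highest at 0.81, while CDT1 had -1.36. Under STM2457 the lowest values in Kelly were those of DBF4 on day 3, -1.68 ± 0.15 (SE, edgeR adjusted p = 2.8e-21), and GMNN on day 6, -1.69 ± 0.18 (SE, edgeR adjusted p = 6.5e-16), and the highest those of POLE given above. In NGP under STM2457 GINS3 (-1.22) and POLD2 (0.69) were the ends on day 3. On day 6 they were CDT1 (-1.86) and POLA1, the catalytic subunit of polymerase alpha, 0.70 ± 0.11 (SE, edgeR adjusted p = 1.1e-07). After actinomycin D the DMSO fall was deepest for MCM5 in Kelly at 3 h (-1.29), CDC6 in Kelly at 6 h (-1.26), TK1 in NGP at 3 h (-0.89) and GMNN in NGP at 6 h (-0.92), all called.

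A second list of 40 replication and S phase genes that are no members gave counts in the same comparisons. This list too was chosen with earlier results of these data known, so its counts are no independent check. The genes named from it were chosen after their values were seen. In DMSO from day 3 to day 6, 23 of 40 were called lower in Kelly and 11 in NGP, and 0 higher in either (medians -0.51 and -0.24), beside 5.74 and 6.72% of all genes lower. CLSPN, the checkpoint adaptor claspin, fell by 0.72 ± 0.10 on the log2 scale (SE, edgeR adjusted p = 2.9e-09) in Kelly and fell by 0.77 ± 0.09 on the log2 scale (SE, edgeR adjusted p = 9.7e-11) in NGP. CCNA2, the S phase cyclin A2, fell by 0.67 in Kelly and by 0.92 in NGP. Under STM2457 on day 6, 12 of 40 were higher in Kelly and 9 in NGP, and 0 lower, beside 2.70 and 4.45% of all genes higher. FEN1, the flap nuclease of lagging-strand synthesis, was higher by 0.90 ± 0.12 (SE, edgeR adjusted p = 8.3e-10) in Kelly and by 0.76 ± 0.11 (SE, edgeR adjusted p = 1.2e-07) in NGP. It was also higher on day 3, by 0.62 ± 0.12 (SE, edgeR adjusted p = 1.3e-04) in Kelly and by 0.46 ± 0.11 (SE, edgeR adjusted p = 0.0042) in NGP, and with RECQL4 in Kelly (-0.59) these are the calls of this list on day 3. Its E2F letters were found in 13 of the 30 genes with a RefSeq window.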

How the data were processed

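Poly(A) RNA-seq of 48 libraries was used as the gene counts the authors deposited, 1 table per library. Per the file headers, read pairs were counted with featureCounts (Subread 1.5.3) over exons by gene name on GENCODE 33 protein-coding genes with 92 ERCC spike-ins, with no strand, multi-mapping or overlap option named. The submitters' processing notes name FastQC 0.11.5, Trimmomatic 0.36, HISAT2 2.1.0 and GRCh38/hg38. The ERCC entries stayed out of library sizes and tests.

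The members and lists were chosen with earlier results of these data known. Genes were kept by edgeR's filterByExpr (minimum count 10, total 15), and each line was fitted on its 24 libraries as 12 groups with TMM and edgeR 4.0.16's quasi-likelihood test in R 4.3.3. Line differences come from a joint fit of all 48. SE is the log2 change over the square root of F. All members are counted, and values are given in full by rule: per role and line, the called member of smallest adjusted p in the DMSO change and the day 6 STM2457 effect; up to 12 members called in both of these in both lines; the 2 lowest and 2 highest in mean DMSO decay; every called decay difference; and the largest change each way per comparison, many of these as an estimate only. Others named were chosen after their values were seen. The code was tested on simulated data. Changes were given to genes drawn at random from those over a count floor, so the rates are not those of the members. For the day 6 STM2457 effect it called 64% of 2-fold changes in Kelly and 66% in NGP. Of 1.41-fold changes it called 19 and 23%, so a member without a call may still have changed. Alternatives were RLE, library size or ERCC scaling, no filter, DESeq2 1.42.0, voom in limma 3.58.1, a fit on the compared groups only, a replicate block, and leaving out each library. Leave-one-out fits kept the genes and dispersion trend of the full fit. Promoters and motif letters come from RefSeq GRCh38.p14 tables.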

Additional observations from a re-analysis of the deposited data

Results flagged for a closer look

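The STM2457 effect differed between day 3 and day 6 by the interaction test, so that it was more positive on day 6, for 13 members in Kelly. The log2 differences between the days were MCM2 (0.53), MCM3 (0.67), MCM4 (0.51), MCM5 (0.68), CDC6 (1.09), CDC45 (0.77), GINS2 (1.07), PCNA (0.63), POLE (0.44), LIG1 (0.51), TYMS (0.61), RRM2 (0.68) and UHRF1 (0.55). With each of 8 libraries left out in turn, MCM2, MCM3, MCM4, MCM5, CDC6 and RRM2 kept the call, while LIG1 lost it in 7 of the refits and UHRF1 in 6. With ERCC scaling 0 members were called more positive in Kelly and 4 more negative, and LIG1, MCM2, MCM4, PCNA, POLE, TYMS and UHRF1 changed sign. In NGP the same test called 8 members, with MCM3 (0.47), MCM4 (0.36), MCM10 (0.56), RPA1 (0.49), TYMS (0.79), RRM1 (0.71), RRM2 (0.38) and UHRF1 (0.80). MCM3, MCM4, RRM2 and UHRF1 kept the call in all 8 refits, RPA1 and TYMS lost it in 4, MCM10 in 2 and RRM1 in 1.

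The change in DMSO differed between the lines for 8 members, with NGP minus Kelly values of MCM2 (0.41), MCM4 (0.34), MCM5 (0.80), MCM6 (0.47), CDC6 (0.73), RFC4 (0.79), RFC5 (0.71) and RRM2 (0.31). MCM5 alone kept that call in all 8 refits, RFC5 lost it in each, and RFC4 lost it in 6 and was 0.49 without the first Kelly DMSO library of day 3. With ERCC scaling 0 members were called in this direction and 12 in the other, and MCM2, MCM4, MCM6 and RRM2 changed sign. The STM2457 effect on day 6 differed between the lines for CDC6 (-0.79), a call that 4 of 8 refits lost.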

How the results depend on the processing

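With 2 libraries a group, leaving out 1 library often lost a call, in some cases with little change in the estimate. Scaling to ERCC changed the zero point of many comparisons. Counts of members called with ERCC scaling were 27 and 10 for the Kelly STM2457 effect on days 3 and 6, 15 and 23 for the Kelly change in DMSO and STM2457, 17 and 45 for that in DMSO after 3 and 6 h of actinomycin D, and 30 for the NGP change in STM2457. For the interaction with duration they were 4 in Kelly, all with the opposite sign, and 3 in NGP. For the decay difference they were 21 and 31 in Kelly on days 3 and 6 and 13 in NGP on day 6, and for the line differences 0 and 12. The decay from 0 to 6 h in Kelly DMSO, Kelly STM2457, NGP DMSO and NGP STM2457, on day 3 and then day 6 of each, gave 25, 24, 24, 23, 25, 29, 19 and 24 by library size only and 22, 49, 48, 28, 37, 48, 31 and 32 with ERCC scaling, with the balance turned to lower. Apart from the scaling itself, the cause was not tested. ERCC scaling also turned the sign of 20 single values. In the Kelly duration dependence of the STM2457 effect these were LIG1 (-0.14), MCM2 (-0.13), MCM4 (-0.14), PCNA (-0.023), POLE (-0.21), TYMS (-0.042) and UHRF1 (-0.10). In the Kelly 6 days decay in DMSO these were POLD2 (-0.47) and POLE (-0.47). In the NGP duration change in DMSO after 6 h of actinomycin D these were POLD1 (-0.12). In the NGP 3 days decay in DMSO these were POLD2 (-0.079) and POLE (-0.26). In the NGP 6 days decay in DMSO these were GINS4 (-0.23), POLD2 (-0.46) and POLE (-0.51). In the NGP 6 days decay difference these were MCM4 (0.15). In the NGP minus Kelly duration change in DMSO these were MCM2 (-0.15), MCM4 (-0.21), MCM6 (-0.088) and RRM2 (-0.24).

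DESeq2 called 1 member for the Kelly STM2457 effect on day 3, 5 for the Kelly change in STM2457 and 1 for the Kelly decay difference on day 6. The NGP decay difference on day 6 gave 1 with only the groups compared. The line difference in the STM2457 effect on day 6 gave 4 with no filter, 8 by DESeq2 and 3 with only the groups compared. That in the DMSO change gave 4 with RLE, 2 by library size only and 5 by limma-voom. Same-numbered replicates did not deviate together (correlations of -0.0552 to 0.0567 over 66 pairs of groups in Kelly and -0.0279 to 0.0565 over 66 in NGP). With the replicate block the line difference in the STM2457 effect gave 3 calls, and no other count moved by over 1.5 times.

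Leaving out 1 library, with the lone sample of a group assumed to vary like the others, gave these counts of members called. The Kelly 3 days STM2457 effect gave 0 to 0. The Kelly 3 days decay difference gave 0 to 0. The Kelly 3 days decay in DMSO gave 21 to 24. The Kelly 3 days decay in STM2457 gave 20 to 23. The Kelly 6 days STM2457 effect gave 14 to 18. The Kelly 6 days decay difference gave 0 to 1. The Kelly 6 days decay in DMSO gave 21 to 24. The Kelly 6 days decay in STM2457 gave 22 to 26. The Kelly duration change in DMSO gave 23 to 27. The Kelly duration change in DMSO after 3 h of actinomycin D gave 17 to 28. The Kelly duration change in DMSO after 6 h of actinomycin D gave 24 to 27. The Kelly duration change in STM2457 gave 2 to 3. The Kelly duration dependence of the STM2457 effect gave 7 to 10. The NGP 3 days STM2457 effect gave 1 to 1. The NGP 3 days decay difference gave 0 to 1. The NGP 3 days decay in DMSO gave 23 to 24. The NGP 3 days decay in STM2457 gave 18 to 20. The NGP 6 days STM2457 effect gave 10 to 12. The NGP 6 days decay difference gave 1 to 4. The NGP 6 days decay in DMSO gave 24 to 30. The NGP 6 days decay in STM2457 gave 18 to 20. The NGP duration change in DMSO gave 14 to 21. The NGP duration change in DMSO after 3 h of actinomycin D gave 16 to 22. The NGP duration change in DMSO after 6 h of actinomycin D gave 16 to 26. The NGP duration change in STM2457 gave 3 to 4. The NGP duration dependence of the STM2457 effect gave 5 to 8. The NGP minus Kelly 6 days STM2457 effect gave 0 to 2. The NGP minus Kelly duration change in DMSO gave 1 to 5.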
